A study of Homo sapiens with 8 samples.

Results

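The comparison set all 4 libraries numbered 3 and 4 (CTRL_3, CTRL_4, miR-155OE_3 and miR-155OE_4) against all 4 numbered 1 and 2, with the group as a covariate, so that a difference by library number is kept apart from that of the microRNA. The members were the 8 libraries of the series, 8 of 8, taken by the number in their titles. The split of the numbers was selected on the gene levels of these same libraries, so that differences between the numbers are described here and not tested. What a shared number means is not given in the labels, and whether it marks a culture, a day or a preparation is unknown.

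All 8 libraries came from EPC2-hTERT, a human esophageal epithelial cell line immortalised with telomerase (hTERT). The miR-155OE group was a stable line with lentiviral overexpression of miR-155-5p and the CTRL group its control line. Both lines were seeded on porous inserts (0.4 µm) in medium holding 50 µg/mL pituitary extract and 1 ng/mL epidermal growth factor. After 2 days calcium was set to 1.8 mM, and after a further 5 days the cells were brought to the air-liquid interface (3D-ALI). Each group is a single engineered line, and nothing in the labels says that libraries of a group came from separate cultures, so that p-values measure the spread between these libraries, which may be technical.

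All 10 markers of stratified squamous epithelium, such as KRT5, KRT14 and TP63, had reads in these libraries. These 10 ran from KRT13 (15 to 816 reads per library) and SOX2 (100 to 583) up to KRT5 (326156 to 532348). Of the markers of other cell types, 6 of 13 fibroblast, 8 of 20 immune, 7 of 24 simple and columnar, and 4 of 17 endothelial, neural and melanocyte genes had 0 reads in every library. The members with the most reads were COL1A1 (3583 to 7357 per library), CD14 (252 to 574), KRT19 (2206 to 10202) and VWF (45 to 85), in the same order. COL1A1 and KRT19 thus had more reads than the squamous markers KRT13 and SOX2. In bulk RNA, fewer cells of a type and less RNA per cell cannot be told apart. MIR155HG, the host transcript of the microRNA, had 0 reads in every library, where 3 reads would be 0.0573 to 0.0901 CPM (counts scaled to a common library size).

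Stratified epithelium renews from a basal layer attached to a laminin-rich basement membrane. Cells that leave it build keratins and a cornified envelope as they move up, and raised calcium and exposure to air drive that programme in culture. Epidermis ends in the keratins KRT1 and KRT10 with loricrin and late envelope proteins, while esophageal mucosa uses KRT4 and KRT13. Cholesterol synthesis is run by the SREBP factors, which respond to sterol supply, and immediate early genes such as FOS and EGR1 respond within minutes to growth factors, stress and handling.

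The libraries differed by number in more than gene levels. Total counts were 33.4 to 34.5 M in the libraries numbered 1 and 2 and 37.3 to 52.7 M in those numbered 3 and 4, so that the latter 4 were all deeper. The share of counts on mitochondrially encoded genes was 1.30 ± 0.26% (SD, n = 4) in numbers 1 and 2 and 2.54 ± 0.44% (SD, n = 4) in numbers 3 and 4, with ranges of 1.01 to 1.64% and 1.94 to 2.92% that did not overlap. The small structural RNAs 7SL and 7SK took 0.0114 to 0.0301% of counts in numbers 1 and 2 and 0.0051 to 0.0128% in numbers 3 and 4, ranges that overlapped. Shares of ribosomal protein genes and of the 100 most abundant genes overlapped as well. The part of these values in the gene differences was not tested. Thinning each library to the smallest total left 1187 genes called where the full counts gave 1212. Thinning evens the totals only, and whatever else went with depth cannot be told apart from the library number.

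**Figure D1:**
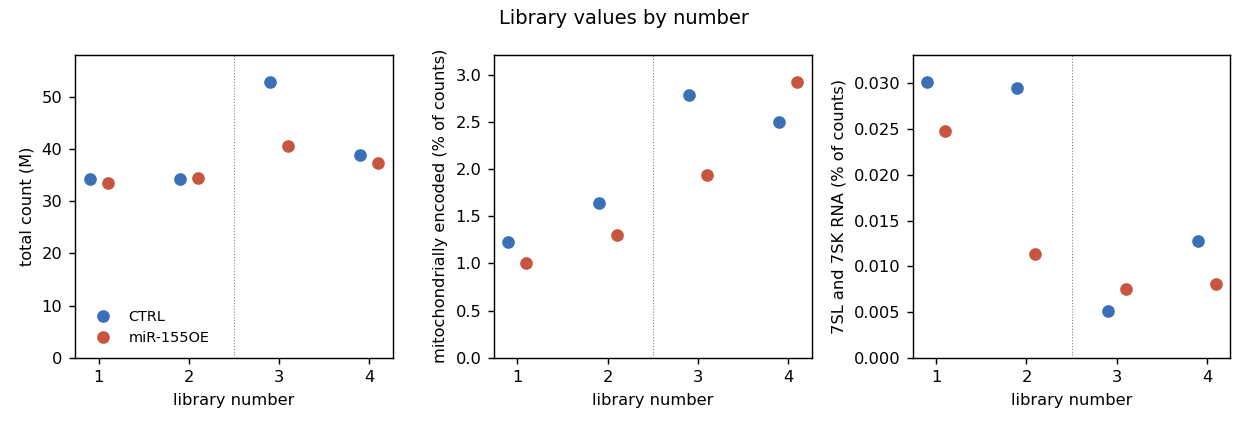
Total count, share of counts on mitochondrially encoded genes and share on 7SL and 7SK RNA (vertical axes, linear from 0) against library number, for CTRL and miR-155OE (1 point per library). The 4 libraries numbered 3 and 4 lie above those numbered 1 and 2 in total count (37.3 to 52.7 against 33.4 to 34.5 M) and in mitochondrial share (1.94 to 2.92 against 1.01 to 1.64%).

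Of 15135 genes tested, 1212 (8.01%) passed the threshold of the edgeR quasi-likelihood fit (Benjamini-Hochberg adjusted p under 0.05) between numbers 3 and 4 and numbers 1 and 2, of which 618 (4.08%) were higher in numbers 3 and 4 and 594 (3.92%) lower. With the number as a random block in limma-voom the count was 872, and 129 on the mean of both groups for each number. Of the 1212, 57 were at least 2-fold higher and 86 at least 2-fold lower. The genes next to the threshold were EIF2S1 and EME2 inside it, with log2 differences of 0.18 and 0.33, and ACAP2 and PLAUR outside it, with 0.23 and 0.38. Protein-coding genes made up 95.3% of the genes called and 83.1% of those tested. The median log2 difference over all tested genes was -0.0026. Because the split was selected on these values, the threshold here only sorts and counts genes, and no p-value of it is given. The call count rested on several libraries: leaving out CTRL_1, CTRL_2 or CTRL_4 gave 461, 508 and 418 genes, leaving out miR-155OE_1, miR-155OE_2 or miR-155OE_4 gave 720, 546 and 559, and leaving out CTRL_3 or miR-155OE_3 gave 1150 and 869. Leaving out both libraries of number 1, 2, 3 or 4 gave 276, 141, 1073 and 72 genes. Of 103 called genes checked singly, 46 lost their call without at least 1 of the 8 libraries. Among genes named below, the calls of PTGER3, PLIN2, TSLP, PRKCI, EGR1 and EIF3C were each lost without any 1 of 6 libraries. Those of TNFAIP3, CXCL2, ELOVL4, CLDN1, DSG3, ALDH1A3, KRT19 and MT-ND6 were each lost without any 1 of 5.

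The direction was compared between the groups, which share no library. All 1212 called genes had the same sign in both groups, as a joint call favours. In 1197 of them both libraries numbered 3 and 4 lay beyond both numbered 1 and 2 within CTRL and within miR-155OE. Over all tested genes 3481 (23.0%) were separated in this way in 1 direction in both groups, and 308 (2.04%) were separated in opposite directions. The values of both groups were among those the split was selected on, so the shares that follow are a description too. Among 12563 genes with a mean of at least 1 CPM, 243 were at least 1.5-fold higher in numbers 3 and 4 within CTRL. Of these, 90.1% had the same sign in miR-155OE, where 51.1% of all genes had it, and 54.3% were also past 1.5-fold there, as 2.34% of all genes were. Their median log2 difference was 0.77 in CTRL and 0.64 in miR-155OE. The 391 genes at least 1.5-fold lower within CTRL had the same sign in miR-155OE for 87.7% (48.9% of all genes), and 50.9% were past 1.5-fold there (3.85% of all genes). Chosen the other way, the 294 higher and 484 lower genes of miR-155OE had the same sign in CTRL for 93.5% and 92.1%. Across genes the differences of the 2 groups correlated at Pearson 0.66 and Spearman 0.63, as a description over genes that are not independent replicates.

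**Figure D2:**
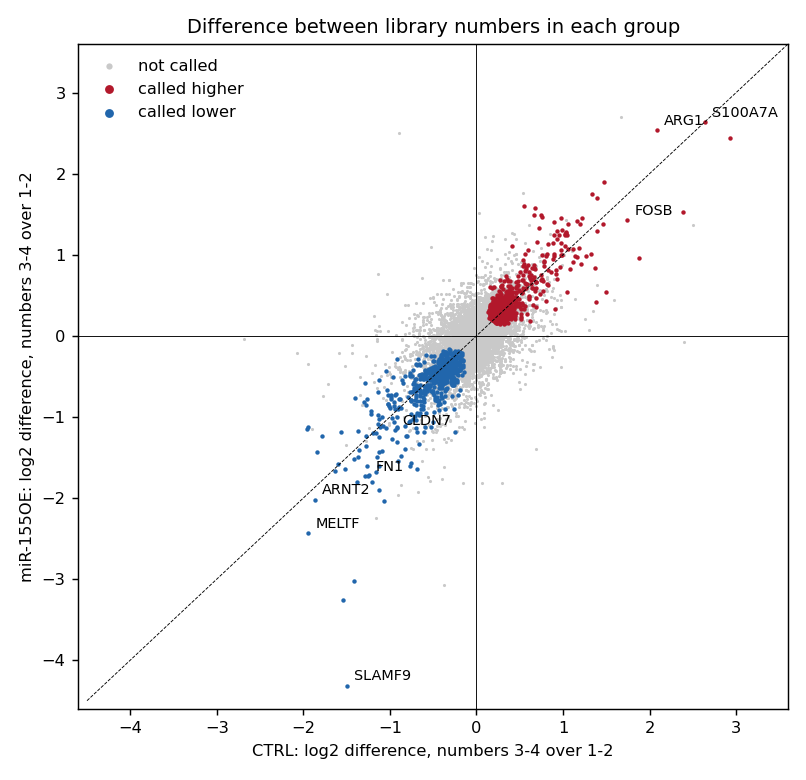
Log2 difference of numbers 3 and 4 over 1 and 2 in CTRL (horizontal) and in miR-155OE (vertical) for 12563 genes of at least 1 CPM, coloured by the joint call, with the dashed line of equal difference. The called genes lie in the lower left and the upper right, for example MELTF (-1.94 and -2.43) and S100A7A (2.64 and 2.64).

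In a division of the summed squares of log2 CPM over the same 12563 genes, the group took 37.8%, numbers 3 and 4 against 1 and 2 took 24.7%, and the numbers within these pairs took 18.6% on 2 degrees of freedom. The difference of the number effect between the groups took 5.00%, and 13.9% was residual. On the first principal component of the deviations from the group means (42.1% of their variance) CTRL_1 to CTRL_4 lay at -12.4, -14.6, 7.69 and 19.2. The miR-155OE libraries lay at -9.96, -23.5, 15.2 and 18.3. Both groups thus had numbers 1 and 2 on the negative side and numbers 3 and 4 on the positive side, and number 4 lay farthest out on that side.

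**Figure D3:**
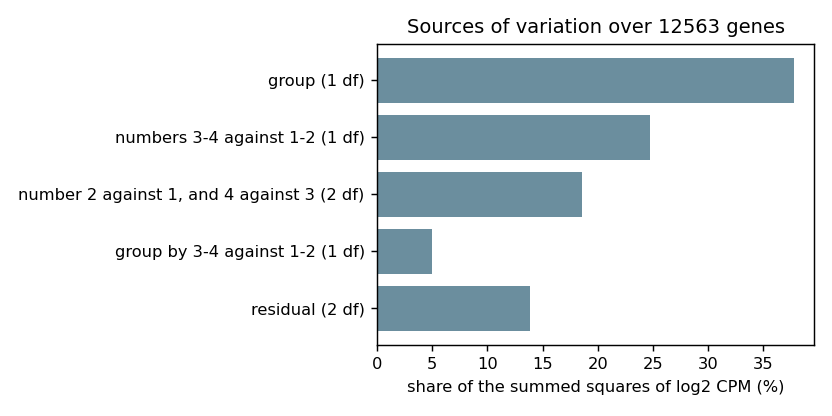
Share of the summed squares of log2 CPM (horizontal axis, percent) over 12563 genes for each source of the design, with its degrees of freedom. The group took 37.8% and numbers 3 and 4 against 1 and 2 took 24.7%, and the group by number term took 5.00%.

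Epidermal differentiation genes were among those higher in numbers 3 and 4. Of 33 tested members of the list of suprabasal and cornified envelope genes of epidermal type, 7 passed as higher and 1 as lower, with a median log2 difference of 0.50 (0.38 in CTRL and 0.60 in miR-155OE). Over all tested genes 4.08% passed as higher and 3.92% as lower. In both groups 6 members were separated as higher and 1 as lower, as were 1820 and 1661 of all 15135 tested genes. The median over members of log2 CPM minus the group mean was -0.05, -0.28, -0.23 and 0.67 in CTRL_1 to CTRL_4. It was -0.24, -0.28, 0.68 and -0.004 in miR-155OE_1 to miR-155OE_4. The list as a whole was thus highest in CTRL_4 and miR-155OE_3, and CTRL_3 lay between CTRL_1 and CTRL_2. KRT10, the keratin of differentiated suprabasal epidermal cells, was at 2011, 2001, 3709 and 6789.9 CPM in CTRL_1 to CTRL_4 and at 5464, 3149.6, 11458 and 9597 CPM in miR-155OE_1 to miR-155OE_4. Numbers 3 and 4 lay above numbers 1 and 2 in each group, and the log2 difference was 1.34 (SE 0.20), with 1.39 in CTRL and 1.29 in miR-155OE. KRTDAP, a secreted protein of differentiating keratinocytes, was at 333, 357, 637 and 949 CPM in CTRL and 1091, 672, 2321 and 2253 CPM in miR-155OE, with a log2 difference of 1.29 (SE 0.16). Its numbers 3 and 4 also lay above numbers 1 and 2 in both groups.

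LCE1B and LCE2C, of the late cornified envelope, had log2 differences of 1.01 (SE 0.24) and 0.98 (SE 0.23), and CALML5, a calmodulin-like protein of the upper layers, of 1.02 (SE 0.24). In CTRL these 3 genes were high in CTRL_4 (23.6, 27.1 and 122 CPM) while CTRL_3 (9.83, 11.5 and 47.8 CPM) lay just above numbers 1 and 2. Loricrin (LOR), the main envelope protein, differed by 0.40 (SE 0.11). CDSN, the adhesive protein of corneodesmosomes, went the other way: it was at 1968, 1519, 1166 and 1051 CPM in CTRL and 2441, 2006, 1898 and 1575 CPM in miR-155OE, a log2 difference of -0.50 (SE 0.11). The calls of LCE1B, LCE2C, CALML5 and CDSN were each lost without any 1 of 6 libraries. KRT1, the partner of KRT10, did not pass (0.56, SE 0.32), and its numbers overlapped in both groups. The count of 7 higher members ran from 2 to 13 when 1 library was left out, and was 3, 1, 9 and 0 without both libraries of number 1, 2, 3 and 4, while the median stayed between 0.37 and 0.64 in these last 4 fits.

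**Figure D4:**
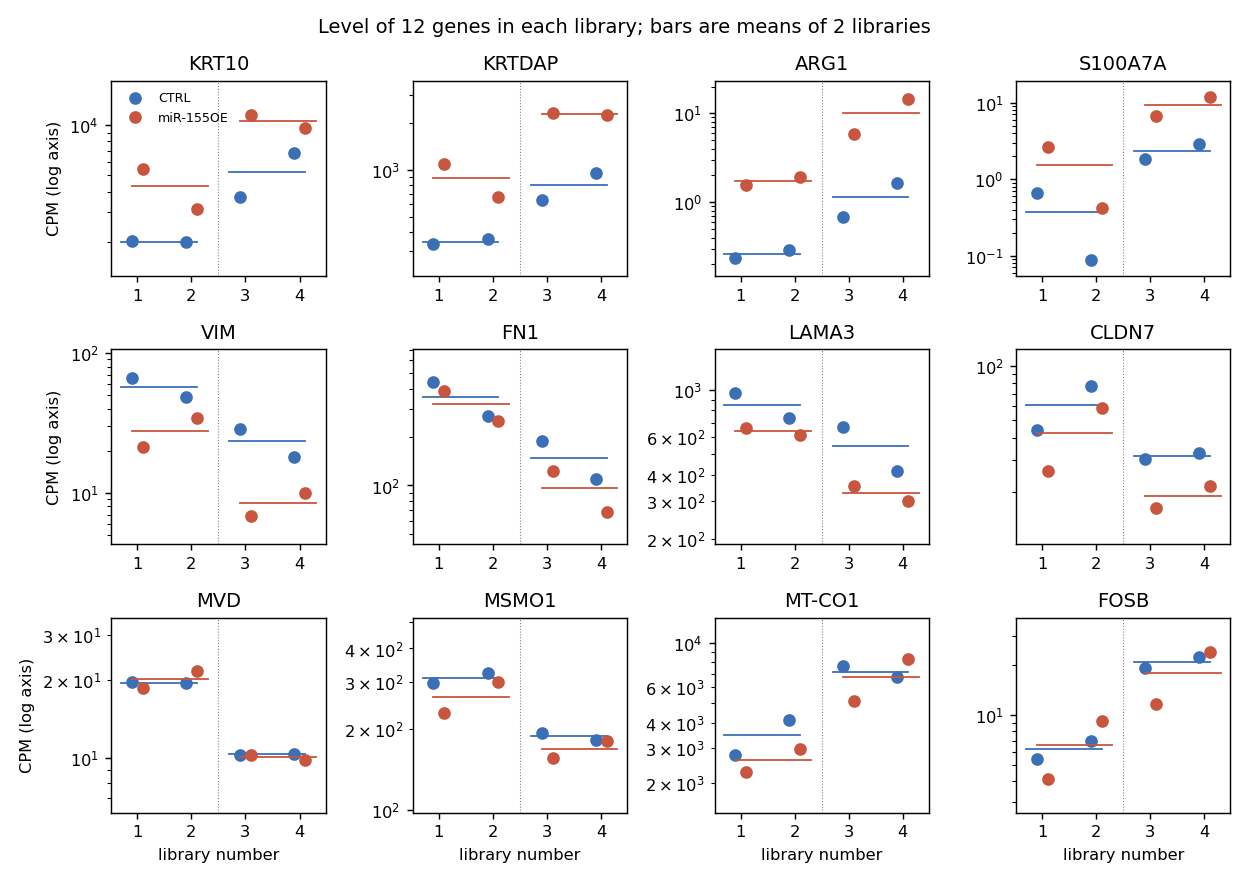
CPM (log axis) of 12 genes in each library against the library number, in CTRL and miR-155OE, with bars for the mean of 2 libraries. KRT10, KRTDAP, ARG1, S100A7A, MT-CO1 and FOSB are higher in numbers 3 and 4 in both groups, and VIM, FN1, LAMA3, CLDN7, MVD and MSMO1 are lower.

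Few genes typical of esophageal mucosa passed. Of 37 tested members of the mucosal list, 1 passed as higher (SPRR1A, a cornified envelope precursor, 0.41) and 3 as lower, where 4.08% and 3.92% of all genes passed. Counts this small lie near those shares. The median was -0.07, and it was -0.44 without number 4 and 0.0054 without number 2. The lower members were ECM1 (-0.97, SE 0.21), the envelope protein EVPL (-0.39, SE 0.06) and LY6D (-0.61, SE 0.14). KRT4 and KRT13, the mucosal keratin pair, did not pass. KRT4 was at 60.4, 111, 126 and 83.8 CPM in CTRL and 5.71, 47.9, 3.18 and 12.2 CPM in miR-155OE, and its numbers overlapped in both groups. KRT13 was at 8.08, 17.6, 15.6 and 4.15 CPM in CTRL, with overlap, and at 2.40, 8.17, 0.372 and 0.903 CPM in miR-155OE, where numbers 3 and 4 were below numbers 1 and 2.

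The genes with the highest differences were of varied roles and mostly low level. ARG1, arginase of the urea cycle and also made by differentiating keratinocytes, was at 0.237, 0.289, 0.687 and 1.63 CPM in CTRL and 1.56, 1.90, 5.78 and 14.4 CPM in miR-155OE, a log2 difference of 2.41 (SE 0.37). Its numbers 3 and 4 lay above numbers 1 and 2 in each group, with number 4 the highest. S100A7A, an antimicrobial S100 protein with a close relative in S100A7, was at 0.651, 0.0868, 1.81 and 2.84 CPM in CTRL and 2.61, 0.420, 6.78 and 12 CPM in miR-155OE, a log2 difference of 2.64 (SE 0.51). Number 2 was the lowest in both groups, and S100A7 itself differed by 1.07 (SE 0.29) and did not pass. PLIN2, which coats lipid droplets, was at 0.0296, 0.695, 1.01 and 2.92 CPM in CTRL and 4.15, 4.93, 18.6 and 7.64 CPM in miR-155OE, the first value standing for a single read. PTGER3, a prostaglandin E receptor, differed by 1.35 (SE 0.30), the Ras activator RASGRP1 by 1.34 (SE 0.27), and GBP2, an interferon-inducible GTPase, by 1.42 (SE 0.26). CYFIP2 (higher, 1.55) overlaps ADAM19 on the other strand, and ARG1 overlaps MED23, and the strand setting of the counting is not given in the sources used here.

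Genes of the basal layer and the matrix were among those lower in numbers 3 and 4. Of 25 tested members of the basal keratinocyte list, 10 passed as lower and 1 (BCAM, a laminin receptor, 0.36) as higher, with a median of -0.19. Over all tested genes 3.92% passed as lower and 4.08% as higher. LAMA3, a laminin chain of the epidermal basement membrane, was at 966, 736, 669.7 and 415 CPM in CTRL and 661, 616, 356 and 302 CPM in miR-155OE, a log2 difference of -0.80 (SE 0.15), and numbers 3 and 4 lay below numbers 1 and 2 in both groups. LAMB3, another laminin chain, differed by -0.48 (SE 0.09). COL17A1, the hemidesmosomal collagen, differed by -0.43 (SE 0.07), and the basal keratins KRT14 and KRT5 by -0.44 (SE 0.09) and -0.28 (SE 0.07). The call of KRT5 was lost without any 1 of the 8 libraries, and that of KRT14 without any 1 of 5. PDPN, DST, CDH3 and the neurotrophin receptor NGFR were also lower, at -0.62, -0.47, -0.52 and -0.91. Without number 4 the count of lower basal members was 1, and without numbers 1, 2 and 3 it was 3, 4 and 9, with medians of -0.31 to -0.22.

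Of 36 tested genes of the list of TGF-beta, matrix and mesenchymal genes, 5 passed as lower and 0 as higher (3.92% and 4.08% of all genes). The median was -0.21. FN1, fibronectin, was at 439, 271, 188 and 109 CPM in CTRL and 389, 253, 124 and 68.8 CPM in miR-155OE, a log2 difference of -1.49 (SE 0.25). VIM, the intermediate filament of mesenchymal cells, was at 66.3, 48.8, 28.8 and 18.0 CPM in CTRL and 21.2, 34.6, 6.85 and 9.96 CPM in miR-155OE, with -1.29 in CTRL and -1.73 in miR-155OE as log2 differences. For both genes numbers 3 and 4 lay below numbers 1 and 2 in each group. The TGF-beta-induced matrix protein TGFBI (-0.68, SE 0.08), tenascin TNC (-0.91, SE 0.15) and LTBP2 (-0.38) were the others. The count of lower matrix genes was 3, 4, 7 and 1 without number 1, 2, 3 and 4. The summed level of the 13 fibroblast markers was 133 to 228 CPM in numbers 1 and 2 and 96.9 to 163 CPM in numbers 3 and 4. Nearly all of it was COL1A1 (92.8 to 221 CPM), which did not pass (-0.52), while DCN, LUM, COL1A2 and COL3A1 had no read. Another of the 3 tested markers, at a far lower level, passed as lower. Simple and columnar markers summed to 156 to 356 and 105 to 225 CPM, of which KRT19 was the member that passed (-1.02, SE 0.24). Immune markers summed to 9.64 to 13.1 and 10.5 to 17.4 CPM, and endothelial, neural and melanocyte markers to 5.05 to 6.04 and 4.59 to 5.73 CPM. The immune marker CSF1R, under 1 CPM in every library, passed as lower (-1.75). These marker levels were not tested as a part of the gene differences.

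Genes of cholesterol synthesis were among those lower in numbers 3 and 4. Of 25 tested members of the list, 14 passed as lower and 0 as higher, where 3.92% of all genes passed as lower. In both groups 17 members were separated as lower, as were 1661 of all 15135 tested genes. The median log2 difference was -0.37, with -0.38 in CTRL and -0.37 in miR-155OE. The members that passed covered the early steps (HMGCS1, MVK, MVD, IDI1 and FDPS), the squalene steps (FDFT1, SQLE and LSS) and the sterol steps (CYP51A1, MSMO1 and DHCR7). ACAT2 and INSIG1 passed as well. MVD, the decarboxylase that ends the mevalonate series, and MSMO1, a sterol demethylase, are shown with their promoters, because they stand for the early and the late steps and were separated by number in both groups. In these 300 bases (250 before to 50 after the gene's start, RefSeq on GRCh38.p14), capitals mark each CCAAT or its complement ATTGG, the box bound by NF-Y.

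MVD promoter (chr16:88663042-88663341, minus strand): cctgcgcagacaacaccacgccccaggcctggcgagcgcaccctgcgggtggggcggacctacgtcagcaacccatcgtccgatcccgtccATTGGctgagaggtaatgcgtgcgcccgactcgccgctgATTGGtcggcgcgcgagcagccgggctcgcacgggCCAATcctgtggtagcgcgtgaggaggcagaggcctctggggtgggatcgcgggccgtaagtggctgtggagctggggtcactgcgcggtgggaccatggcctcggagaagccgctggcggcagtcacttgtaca

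MSMO1 promoter (chr4:165327419-165327718, plus strand): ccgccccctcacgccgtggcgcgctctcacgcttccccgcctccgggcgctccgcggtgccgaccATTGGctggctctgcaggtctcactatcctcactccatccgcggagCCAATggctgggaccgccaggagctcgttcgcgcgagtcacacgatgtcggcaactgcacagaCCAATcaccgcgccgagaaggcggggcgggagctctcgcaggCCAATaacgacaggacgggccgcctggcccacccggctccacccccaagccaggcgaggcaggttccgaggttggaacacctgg

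MVD was at 19.6, 19.5, 10.3 and 10.4 CPM in CTRL and at 18.6, 21.7, 10.3 and 9.83 CPM in miR-155OE, a log2 difference of -0.96 (SE 0.07). The 4 libraries of numbers 1 and 2 lay close together in both groups, and the 4 of numbers 3 and 4 lay close together at about a 1.95-fold lower level. MSMO1 was at 297, 325, 194 and 183 CPM in CTRL and 229.8, 299, 157 and 181 CPM in miR-155OE, a log2 difference of -0.68 (SE 0.09). FDPS differed by -0.57 (SE 0.08), IDI1 by -0.66 (SE 0.09), CYP51A1 by -0.82 (SE 0.13) and SQLE by -0.29 (SE 0.06). ACAT2 (-0.82, SE 0.09) overlaps TCP1 on the other strand. The count of lower members ran from 9 to 16 over the 8 fits that leave out 1 library, and was 8, 6, 10 and 4 without number 1, 2, 3 and 4, with medians of -0.43 to -0.31.

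Promoters on chromosomes 8 and Y were left out, and 1 was kept per gene. Those kept matched 18 of the 25 members. CCAAT on either strand was in 15 of 18 (83.3%), in 8 of the 10 matched members that passed as lower and in 7 of the 8 that did not. Of the 27195 promoters kept, 35.7% held it. The sterol response element TCACNCCAC, on either strand, was in 1 of 18 (SREBF2) and in 1.15% of the promoters kept. The motifs were chosen after the values were seen, and a match is a description.

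Genes for barrier lipids lay on both sides. Of 31 tested members of the fatty acid and barrier lipid list, 10 passed as higher and 5 as lower (4.08% and 3.92% of all genes). The higher ones included genes for ceramides and very long fatty acids: the ceramide synthase CERS3 (0.41, SE 0.08), the elongase ELOVL4 (0.37, SE 0.08), the glucosylceramide synthase UGCG (0.40, SE 0.07) and the serine palmitoyltransferase subunit SPTLC3 (0.41). The lower ones included fatty acid synthase FASN (-0.36), the acetyl-CoA carboxylase ACACA (-0.27) and the desaturase FADS2 (-0.68, SE 0.09), which overlaps FADS1 (-0.55). SPTSSB, a small subunit of serine palmitoyltransferase, was at 11.9, 12.2, 22.9 and 26.5 CPM in CTRL and 11.2, 12.9, 26.4 and 32.5 CPM in miR-155OE, a log2 difference of 1.16 (SE 0.10). The lipase LIPM, made in the granular layer of epidermis, differed by 0.85 (SE 0.07). Both genes were separated by number in each group. SCD, the main desaturase, did not pass (-0.22). Without number 1, 2, 3 and 4 the list had 4, 0, 9 and 0 higher and 2, 1, 6 and 0 lower members.

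Genes encoded in mitochondrial DNA were also higher in numbers 3 and 4. The list held the protein-coding and ribosomal RNA genes and left out the transfer RNA genes. Of its 15 members, all tested, 14 passed as higher and 0 as lower, with a median of 1.06 (0.90 in CTRL and 1.19 in miR-155OE). MT-CO1, a subunit of cytochrome oxidase, was at 2759, 4145, 7667 and 6744 CPM in CTRL and 2264, 2945, 5146 and 8357 CPM in miR-155OE, a log2 difference of 1.22 (SE 0.18). MT-ND5 differed by 1.29 (SE 0.19), MT-CYB by 1.02 (SE 0.14) and MT-ND6, which lies on the other strand of the circle, by 1.02 (SE 0.26). The ribosomal RNAs MT-RNR2 and MT-RNR1 had smaller differences (0.69 (SE 0.11) and 0.75 (SE 0.13)). The list member that did not pass was MT-ND3 (0.26, SE 0.19). Of 10 tested mitochondrial transfer RNA genes, 2 passed as higher (MT-TL1 and MT-TT), 0 as lower and 8 did not pass. Within each group every library numbered 3 or 4 lay above those numbered 1 or 2 for MT-CO1. Of the nuclear genes of oxidative phosphorylation, 1 of 75 passed, COX7B (0.53, SE 0.10), with a median of 0.06. The 76 tested cytosolic ribosomal protein genes had a median of 0.05 and 1 passed. Over all tested genes 8.01% passed in either direction. The count of 14 was 13 or 14 when 1 library was left out, and 6, 11, 14 and 2 without number 1, 2, 3 and 4, with medians of 0.80 to 1.34. The thinned counts gave 14. Leaving out all 25 tested mitochondrially encoded genes, transfer RNA genes included, left 1168 genes called.

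Immediate early genes and some growth factors were among those higher in numbers 3 and 4. Of 30 tested immediate early genes, 8 passed as higher and 0 as lower (4.08% and 3.92% of all genes), with a median of 0.18. The median over members of log2 CPM minus the group mean rose from number 1 to 4. It was -0.20, -0.04, -0.01 and 0.20 in CTRL and -0.19, -0.04, -0.0006 and 0.21 in miR-155OE, so that numbers 2 and 3 lay close together. The median log2 difference was 0.14 for number 2 over 1 and 0.15 for number 4 over 3. FOSB, an AP-1 subunit, was at 5.47, 7.01, 19.2 and 22.6 CPM in CTRL and 4.12, 9.18, 11.7 and 24.2 CPM in miR-155OE, a log2 difference of 1.58 (SE 0.27). ATF3, a stress-induced factor, differed by 0.91 (SE 0.10), the mRNA decay factor ZFP36 by 0.53 (SE 0.06) and the MAP kinase phosphatase DUSP1 by 0.46 (SE 0.07). KLF4, EGR1, FOS and GADD45B were the others, at 0.43, 0.44, 0.36 and 0.35. The count was 2, 5, 11 and 2 without number 1, 2, 3 and 4.

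Of the 25 tested EGFR ligands and feedback genes, 3 ligands passed as higher (4.08% of all genes). HBEGF was at 89.8, 115, 170.2 and 238 CPM in CTRL and 116, 130.4, 221 and 269.5 CPM in miR-155OE, a log2 difference of 0.99 (SE 0.12), with numbers 3 and 4 above numbers 1 and 2 in both groups. EREG differed by 0.83 (SE 0.09) and EPGN by 0.53 (SE 0.09). The ligand EGF itself was lower (-1.81, SE 0.31), at a level near 1 CPM in numbers 1 and 2. Of 24 tested inflammatory and NF-kB genes, 5 passed as higher (4.08% of all genes). Among them were the inhibitor TNFAIP3 (0.75, SE 0.16), CXCL2 (0.83, SE 0.18) and CXCL8 (1.13, SE 0.23), with CXCL8 under 3 CPM in every library. That count was 0 without number 1, 2 or 4 and 5 without number 3. TSLP, an epithelial cytokine, differed by 0.79 (SE 0.19) and SERPINB3, a serpin of squamous epithelium, by 0.68 (SE 0.09).

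Stress genes were mixed. Of 32 tested genes of the unfolded protein and integrated stress responses, 6 passed as higher and 1 as lower (4.08% and 3.92% of all genes). XBP1 (0.29, SE 0.05) and HERPUD1 (0.33, SE 0.05), of the endoplasmic reticulum response, were higher, and DDIT3 (-0.51) was lower. Of 20 heat shock genes, 3 passed as lower (3.92% of all genes). They were CRYAB (-1.32, SE 0.20) and the near-identical pair HSPA1A and HSPA1B (-0.44 and -0.34), whose reads can be split by the counting.

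Of 39 tested members of the hypoxia and glycolysis list, 6 passed as lower and 1 as higher (3.92% and 4.08% of all genes). The median was -0.11. The lower ones were the collagen prolyl hydroxylases P4HA1 (-0.65) and P4HA2 (-0.62, SE 0.07), the glycolytic genes ENO2 (-0.89, SE 0.13), ALDOC (-0.72, SE 0.10) and PGK1 (-0.31), and the lactate carrier SLC16A3 (-0.70). VEGFA, the angiogenic factor, was higher (0.53, SE 0.09). The count of lower members was 3, 2, 7 and 2 without number 1, 2, 3 and 4. HIF1A, the oxygen-sensitive subunit of the hypoxia factor, was at 354, 333, 425 and 436 CPM in CTRL and 361, 349, 408 and 407 CPM in miR-155OE, a log2 difference of 0.26 (SE 0.06), and its numbers did not overlap in either group. The call of HIF1A was lost without any 1 of 4 libraries. ARNT2, a relative of its partner ARNT, was at 5.39, 4.31, 1.55 and 1.08 CPM in CTRL and 3.49, 7.19, 1.29 and 1.34 CPM in miR-155OE, a log2 difference of -1.94 (SE 0.24).

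Of 28 tested tight junction genes, 3 passed as higher and 4 as lower (4.08% and 3.92% of all genes), with a median of -0.03. CLDN7, a claudin that the series title names, was at 44.4, 77.2, 30.6 and 32.8 CPM in CTRL and at 26.3, 58.6, 16.4 and 21.5 CPM in miR-155OE. In both groups number 2 was the highest and both libraries numbered 3 and 4 lay below those numbered 1 and 2, with a log2 difference of -1.05 (SE 0.24), -0.94 in CTRL and -1.16 in miR-155OE. The log2 difference of miR-155OE over CTRL in the same fit was -0.63 (SE 0.24, edgeR adjusted p = 0.127). Whether the sizes of the number and group differences differ was not tested. That fit had the selected split as covariate and did not pair same-numbered libraries. The level in miR-155OE lay below that in CTRL at each number, and a p-value above the threshold does not show equal levels. The call of CLDN7 between the numbers was lost without any 1 of 6 libraries, its log2 difference ranging from -1.23 to -0.77. The gene overlaps ELP5 (-0.07) on the other strand. The scaffold genes CGNL1, TJP3 and MAGI3 were lower (-0.61, -0.52 and -0.41), and CLDN1, CLDN12 and the polarity kinase PRKCI were higher (0.35 (SE 0.08), 0.24 and 0.22 (SE 0.05)). CLDN4 did not pass (0.18, SE 0.09). Without number 1, 2, 3 and 4 the list had 0, 0, 1 and 0 higher and 2, 1, 3 and 0 lower members.

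The counts in the lists that follow are small, beside 4.08% of all genes passing as higher and 3.92% as lower. Of 25 tested genes of adherens junctions and desmosomes, 4 passed as lower and 0 as higher: P-cadherin CDH3 (-0.52, SE 0.06), the desmogleins DSG3 (-0.32, SE 0.07) and DSG2 (-0.32), and CDSN. Without any 1 library this count was 1 to 3. Of 20 tested Notch genes, 5 passed as lower and 1 as higher (the ligand DLL1, 0.69). The lower ones included the targets and relatives HES5 (-1.57, SE 0.31), HEY1 (-0.81), HES2 (-0.54, SE 0.06) and HES4 (-0.39). Of 17 antigen presentation genes, 3 passed as lower, among them the class I genes HLA-C (-0.43, SE 0.09) and HLA-E (-0.30, SE 0.06), whose reads can be split among relatives. Of 28 interferon-stimulated genes, 2 passed as lower, with a median of -0.32. Of 28 S phase genes 1, and of 13 genes of G2 and mitosis 1, passed as lower. The interferon, S phase and G2 counts lie near the share of all genes. Without both libraries of number 4, 1 Notch gene and 0 junction, antigen presentation, interferon and heat shock genes passed as lower, and 1 unfolded protein gene as higher.

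**Figure D5:**
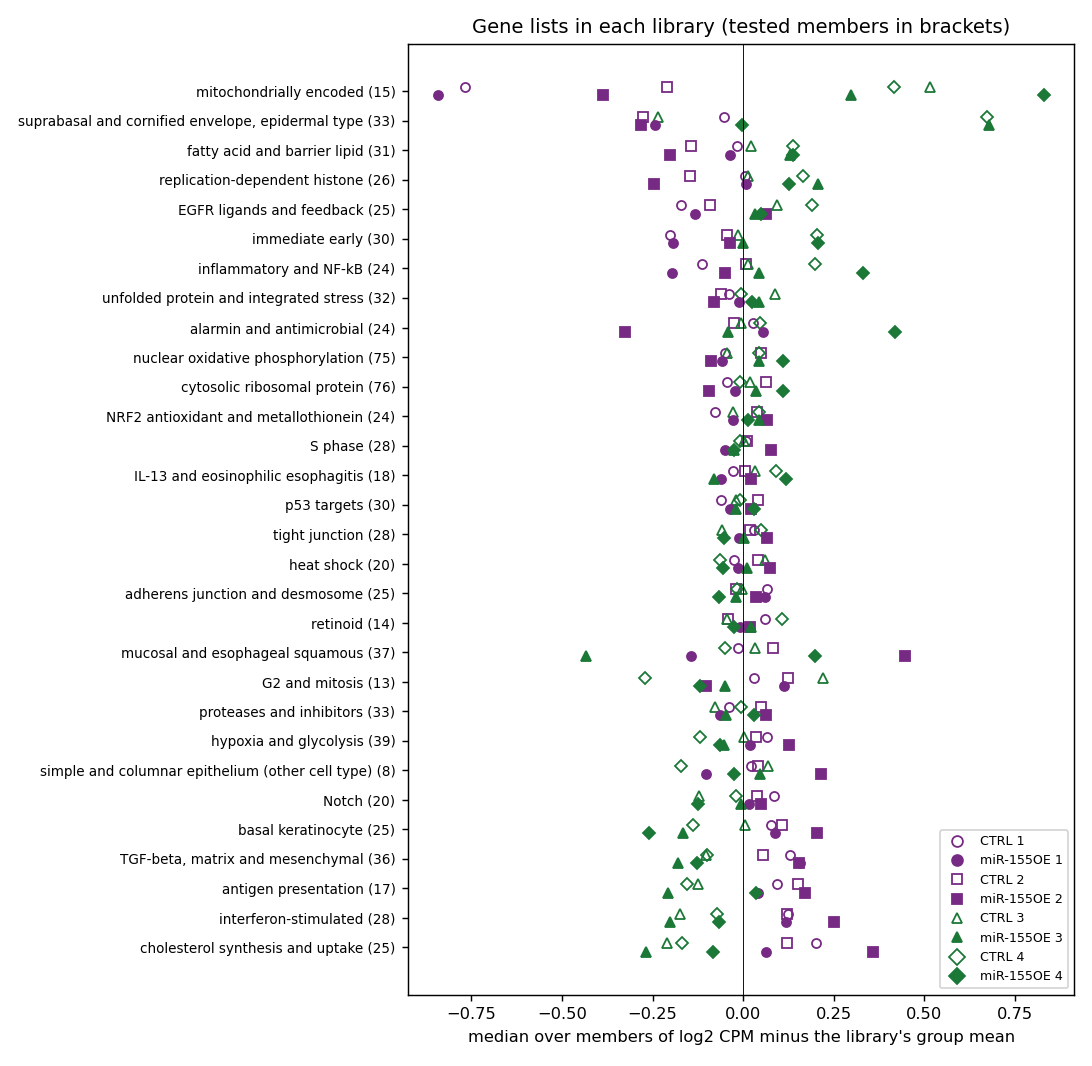
Median over the tested members of each list of log2 CPM minus the mean of the library's group (horizontal axis), 1 symbol per library, its shape giving the number: purple for numbers 1 and 2, green for numbers 3 and 4, open for CTRL and filled for miR-155OE. The mitochondrially encoded list stands highest in numbers 3 and 4 (median difference 1.06), and the cholesterol list lies lower there (-0.37).

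The lowest differences among called genes of at least 1 CPM were also in genes of low level. MELTF, an iron-binding membrane protein of the transferrin family, was at 8.91, 9.75, 2.90 and 1.91 CPM in CTRL and 9.19, 9.80, 1.76 and 1.75 CPM in miR-155OE, a log2 difference of -2.17 (SE 0.16), with no overlap in either group. SLAMF9, the kinase gene SRMS and the axon guidance gene SLIT1 had differences of -2.45 (SE 0.52), -2.22 (SE 0.46) and -2.14 (SE 0.45). SMOC1, a matricellular protein, differed by -1.64 (SE 0.30), and G0S2, an inhibitor of fat breakdown, by -1.57 (SE 0.27). CERCAM differed by -1.28 (SE 0.12) with little scatter. The protease CTSV was lower (-1.12, SE 0.14) and KLK6 higher (0.94, SE 0.15), and the retinoic acid enzyme ALDH1A3, which overlaps the antisense gene AC015712.2, was lower (-1.12, SE 0.24). SNCG (-1.59) overlaps MMRN2, which was lower as well (-0.92). RN7SL2, a copy of the 7SL RNA of the signal recognition particle, was at 293, 284, 45.9 and 122 CPM in CTRL and 241, 105, 71.2 and 75.7 CPM in miR-155OE.

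The difference between the groups in the number effect was tested as an interaction. The values of both groups were among those the split was selected on, which can favour alike effects, so these counts are a description. In edgeR 0 of 15135 genes (0%) passed, and 258 (1.70%) had an unadjusted p under 0.05. DESeq2 called 1 gene and limma-voom 0. A test that calls no gene does not show that the groups had equal number effects. The genes with the lowest interaction p included EIF3C, which has a near-identical copy, with log2 differences of -0.25 in CTRL and -1.19 in miR-155OE, and ACVR1C, a TGF-beta family receptor, with -1.07 in CTRL and -2.04 in miR-155OE.

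The numbers were also compared within each pair, with the group as a covariate. The split was selected on the same levels, which favours small differences within the pairs, so these counts and values are a description and no p-value is given. Between number 2 and number 1, 4 genes (0.0264%) passed in edgeR, 3 (0.0198%) higher in number 2 and 1 (0.00661%) lower. CLDN7 was higher in number 2 by 0.98 (SE 0.12), the peroxidase GPX3 by 0.79 (SE 0.09) and the diamine oxidase AOC1 by 1.48 (SE 0.17) on the log2 scale. S100A7A was lower in number 2, with a log2 difference of -2.68 (SE 0.29). Each of these 4 lay in the same direction in both groups. GPX3 was at 68.8, 110.0, 47.5 and 68.3 CPM in CTRL and 59.0, 110.2, 45.3 and 72.1 CPM in miR-155OE, so that numbers 2 and 4 were above their neighbours in both groups. DESeq2 called 96 genes in this comparison, limma-voom 0, and edgeR 0 to 107 when 1 library was left out.

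Between number 4 and number 3, 16 genes (0.106%) passed in edgeR, 11 (0.0727%) higher in number 4 and 5 (0.0330%) lower. EGR3, an immediate early factor, was at 25.7, 38.2, 36.4 and 81.6 CPM in CTRL and 28.3, 40.5, 35.3 and 68 CPM in miR-155OE, and was higher in number 4 by 1.06 (SE 0.10). The mitochondrial carrier SLC25A25 was higher by 0.91 (SE 0.09), the ribonuclease ZC3H12A by 0.94 (SE 0.10) and the proprotein convertase PCSK5 by 0.86 (SE 0.10). The inhibitor of metalloproteases TIMP1 was lower in number 4, with a log2 difference of -1.12 (SE 0.14). U2AF1L5, a near-identical copy of the splicing factor gene U2AF1, was at 0.947, 0.695, 10.8 and 1.68 CPM in CTRL and 0.992, 0.924, 8.81 and 1.53 CPM in miR-155OE. Number 3 was high in both groups, with a log2 difference of number 4 over 3 of -2.61 (SE 0.21), and its place among the genes higher in numbers 3 and 4 (2.68) was lost without any 1 of 6 libraries. How the counting divides reads between the copies is not given in the sources used here. Leaving out 1 library gave 0 to 123 genes, with 0 without CTRL_4 or miR-155OE_4, and DESeq2 called 145.

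With the pair of numbers as a covariate, 1462 genes (9.66%) passed between miR-155OE and CTRL in edgeR, 905 (5.98%) higher and 557 (3.68%) lower in miR-155OE, against 488 with the group alone. With each number as a replicate block the count was 1908 (12.6%). The split was selected on these same levels, which can favour a small spread and more calls once it is a covariate. Adjusted p-values of miR-155OE over CTRL with the covariate hold under that limit. KRT10 rose by 1.05 (SE 0.20, edgeR adjusted p = 0.0132) with the covariate and had an adjusted p of 0.251 with edgeR on the group alone. KRTDAP rose by 1.44 (SE 0.16, edgeR adjusted p = 0.00135), where the group alone gave an edgeR adjusted p of 0.0888. KRT4 fell, with a log2 difference of -2.67 (SE 0.67, edgeR adjusted p = 0.0349), where the group alone gave an edgeR adjusted p of 0.0745. VIM fell, with a log2 difference of -1.25 (SE 0.21, edgeR adjusted p = 0.00813), and LIPM rose by 0.95 (SE 0.07, edgeR adjusted p = 0.000222). MVD, with little scatter within the pairs of numbers, had a group difference of 0.01 (SE 0.07, edgeR adjusted p = 0.965), and MELTF of -0.18 (SE 0.15, edgeR adjusted p = 0.504). The number and group differences were fitted on the same 8 libraries and are given side by side only. The count of 1462 was 504 without miR-155OE_1, 694 without miR-155OE_3 and 736 to 904 without any 1 of the CTRL libraries, and it was 1180 and 2030 without miR-155OE_4 and miR-155OE_2.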

How the data were processed

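Per the submitters' processing notes the reads were handled with HISAT2 2.0.5, featureCounts 1.5.0-p3 and DESeq2 on GRCh38. The strand setting of the counting is not given in the sources used here. Raw counts per Ensembl gene, with names and positions, were used as deposited (58735 genes, 8 libraries). The authors' second table, a normalised signal with their own comparison, was not used.

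In R 4.3.3, edgeR 4.0.16 (filterByExpr by group with a minimum count of 10, leaving 15135 genes; TMM factors; quasi-likelihood F tests, Benjamini-Hochberg adjusted p under 0.05) fitted 5 contrasts on all 8 libraries: numbers 3 and 4 over 1 and 2 with group as covariate, their interaction with group, number 2 over 1, number 4 over 3, and miR-155OE over CTRL with the pair of numbers as covariate. CPM use TMM-scaled sizes, log2 CPM a prior count of 2, and a floor of 3 reads stands for 0. Each SE was derived from the log2 difference and its F statistic and restates the fit. Total counts were 33.4 to 52.7 M per library. Replicates of a group differed beyond sampling noise (chi-square per degree of freedom 15.8 to 82.5). The fits were tested on simulated data. Alternatives used limma 3.58.1 and DESeq2 1.42.0. Figures used Python 3.11.15 with matplotlib 3.10.9.

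The fits of number 2 over 1, of number 4 over 3 and with a replicate block used the number of each library. The main fits of numbers 3 and 4 over 1 and 2, of the interaction and of the group did not pair same-numbered libraries. Deviations from group means correlated across genes between CTRL and miR-155OE libraries of the same number at 0.46, 0.43, 0.16 and 0.53 for numbers 1 to 4. These deviations still hold the difference between the pairs of numbers. With that difference fitted, the consensus correlation of same-numbered libraries was 0.090. The split, the 33 gene lists, some of which share members, and the tests were chosen with earlier results of these data known. The named genes were, by rule, the 10 highest and 10 lowest differences and 5 lowest p among called and separated genes of at least 1 CPM, the 3 lowest p and 2 highest levels of each list, the 5 lowest p of the interaction, the 5 lowest p in each direction between numbers 2 and 1 and between 4 and 3, and CLDN7, HIF1A and MIR155HG. Other list members, the promoter motifs and RN7SL2 were chosen after their values were seen. Some of the genes the rule gives are not reported here. Promoters came from RefSeq on GRCh38.p14.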

Additional observations from a re-analysis of the deposited data

Results flagged for a closer look

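In 268 groups of 4 libraries (a named gene in CTRL or in miR-155OE), 4 (1.49%) had 1 library far from the rest by the gap relative to the range, where chance alone gives about 1 in 20. U2AF1L5 was at 10.8 CPM in CTRL_3, the other CTRL libraries lying at 0.695 to 1.68 CPM, and at 8.81 CPM in miR-155OE_3, the others lying at 0.924 to 1.53 CPM. CALML5 was at 122 CPM in CTRL_4, with 40.9 to 47.8 CPM in the others. LCE2C was at 27.1 CPM in CTRL_4, with 8.52 to 11.5 CPM in the others.

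In 2 genes chosen for a low interaction p, every library moved in opposite directions by number in the groups. AC245595.1 had log2 differences of numbers 3 and 4 over 1 and 2 of -2.26 in CTRL and 2.10 in miR-155OE, which differ by 4.36. AC027796.4 had 1.5 in CTRL and -1.30 in miR-155OE, which differ by -2.80. Both genes lay near or below 1 CPM in every library, and neither difference passed the edgeR interaction test after adjustment.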

How the results depend on the processing

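The count of 1212 genes between numbers 3 and 4 and numbers 1 and 2 stayed within 1.5 times under RLE factors (1201), a minimum of 10 reads in every library (1240, split 563 higher and 677 lower), limma-voom (1176), DESeq2 (1811) and thinned counts (1187). Keeping every gene with a read raised the calls of the 5 comparisons to 2264, 51 (interaction), 452 (number 2 over 1), 534 (number 4 over 3) and 2669 (miR-155OE over CTRL), and the cause was not tested. Leaving out libraries gave 72 to 1150, 0, 0 to 107, 0 to 123, and 504 to 2030 in the same order. Such fits hold fewer samples. DESeq2 called 1, 96 and 145 genes for the interaction, number 2 over 1 and number 4 over 3. Number 2 over 1 had 0 calls with limma-voom and with 10 reads in every library.

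With the replicate number as a block, the comparison of miR-155OE with CTRL gave 1908 genes, against 1462 with the covariate and 488 with no replicate block and no covariate. The covariate is the selected split, which can favour more calls. The interaction gave 0 with the block. As a random block in limma-voom (consensus correlation 0.090), numbers 3 and 4 over 1 and 2 gave 872 genes, and the means of both groups for each number, 2 against 2 in limma, gave 129. Values of named genes and lists were compared under RLE factors, without mitochondrially encoded genes, without each library in turn and in each group alone. Of these, 1499 and 372 moved by less than their spread and 42 and 23 by more. The other alternatives were not part of that count. The thinned counts, the fits of number 2 over 1 and number 4 over 3 without a library, and the list counts without libraries were chosen after seeing the data. With 2 numbers on each side, what a number shares cannot be told apart from the difference between the pairs.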
